A study of Drosophila melanogaster with 30 samples.

Results

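Embryos that misexpressed the transcription factor gene collier (col, listed in the tables under its other name knot, kn) in the nervous system were compared directly with embryos that misexpressed ladybird early (lbe), at the late embryonic stage AFT (air-filled trachea). The comparison covered 6 of the 30 RNA sequencing samples of the series, 3 of col and 3 of lbe. The values were TPM, a unit of transcript abundance that corrects for transcript length and scales each library to a fixed sum. Of the 14077 genes in the AFT table, 9902 had at least 1 TPM in col or lbe and were compared, and the other 4175 were below 1 TPM in both. A gene was called apart when the difference in log2(TPM + 1), col minus lbe, was 1 or more in size, which is 2-fold on that scale. The control is not the baseline here, so a difference from it that col and lbe share cancels.

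The col embryos carried UAS-col-HA and the lbe embryos UAS-myc-lbe, each a single transgenic line on the third chromosome. Other groups were used beside them as further levels: col + lbe embryos with both of those transgenes, ap + eya embryos with UAS-Flag-ap and UAS-eya-HPC4, and control embryos with the driver over a chromosome of the OregonR wild-type stock. All 5 genotypes carried the driver elav-Gal4, which works across the nervous system and chiefly in neurons that have stopped dividing. Because each transgene was 1 line, a difference between transgenes and a difference between line backgrounds cannot be told apart. Each sample was RNA of more than 200 whole embryos, so fewer cells of a type and less RNA per cell cannot be told apart either.

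The deposited table held 1 mean of the 3 replicates per genotype. Differences are therefore sizes with no replicate check, no error and no test, and "higher" and "lower" describe these means. The depth behind a value is unknown, since TPM carries none. The TPM columns summed to between 984625 and 991941, and those of col and lbe held 9739 and 9741 genes at 1 TPM or more. An earlier collection of other embryos at stage 16 (St16), with the same genotypes, came from a separate table. It was read as single reads of 50 bp, against paired reads of 150 bp at AFT.

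Collier belongs to the COE family of DNA-binding proteins, a name made from Collier itself and the mammalian Olf-1 and EBF factors. In the fly it acts as a selector of class IV dendritic arborization neurons, the larval body-wall neurons with the most branched dendrites that sense noxious touch, heat and strong light, and it also takes part in the identity of some peptidergic neurons of the nerve cord. Ladybird early is a homeodomain protein known for its part in the heart, body-wall muscles and epidermis and in subsets of nerve cord neurons, and it has a close neighbour and relative, ladybird late (lbl).

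At AFT, kn was at 43.4 TPM in col, 5.15 in lbe, 104.5 in col + lbe, 8.98 in ap + eya and 12.4 in control embryos, a difference between col and lbe of 2.85. The gene lbe was at 0.0832 TPM in col, 48.9 in lbe, 88.0 in col + lbe, 0.0838 in ap + eya and 0.0488 in control embryos (difference -5.53). Each gene was thus high in the embryos labelled with its transgene, and transgene reads count towards the endogenous gene. The relative lbl, for which no transgene was driven, was at 3.50 TPM in col, 3.96 in lbe and 5.34 in control (difference -0.14). On the BDGP6.54 annotation kn (FBgn0001319) lies on 2R from 14772650 to 14807061 and lbe (FBgn0011278) on 3R from 21441577 to 21446537, both on the minus strand.

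Few genes separated the misexpressions. Of the 9902 genes compared, 118 were apart (1.19%): 66 were higher in col (0.667%) and 52 lower (0.525%). The median difference over all genes was 0.02, and 54.9% of genes were above 0. The median size of a difference was 0.12, and the 99th percentile of size was 1.05. Just inside the limit lay CG12994 (1.00), CG18606 (-1.01) and CG15125 (-1.01), and just outside it CG6287 (0.99), lectin-28C (0.99) and CG18607 (-0.98). Of the genes apart, 4 that were higher in col were listed at 0 in lbe and 2 that were lower were listed at 0 in col, so no fold can be given for them. The genes apart were 8.23 TPM in the median, taking the higher of col and lbe, against 13.2 TPM for all genes compared. In the annotation they spanned 1127 bases in the median, against 2745 bases for the genes compared. The plot of all genes shows both sets.

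**Figure D1:**
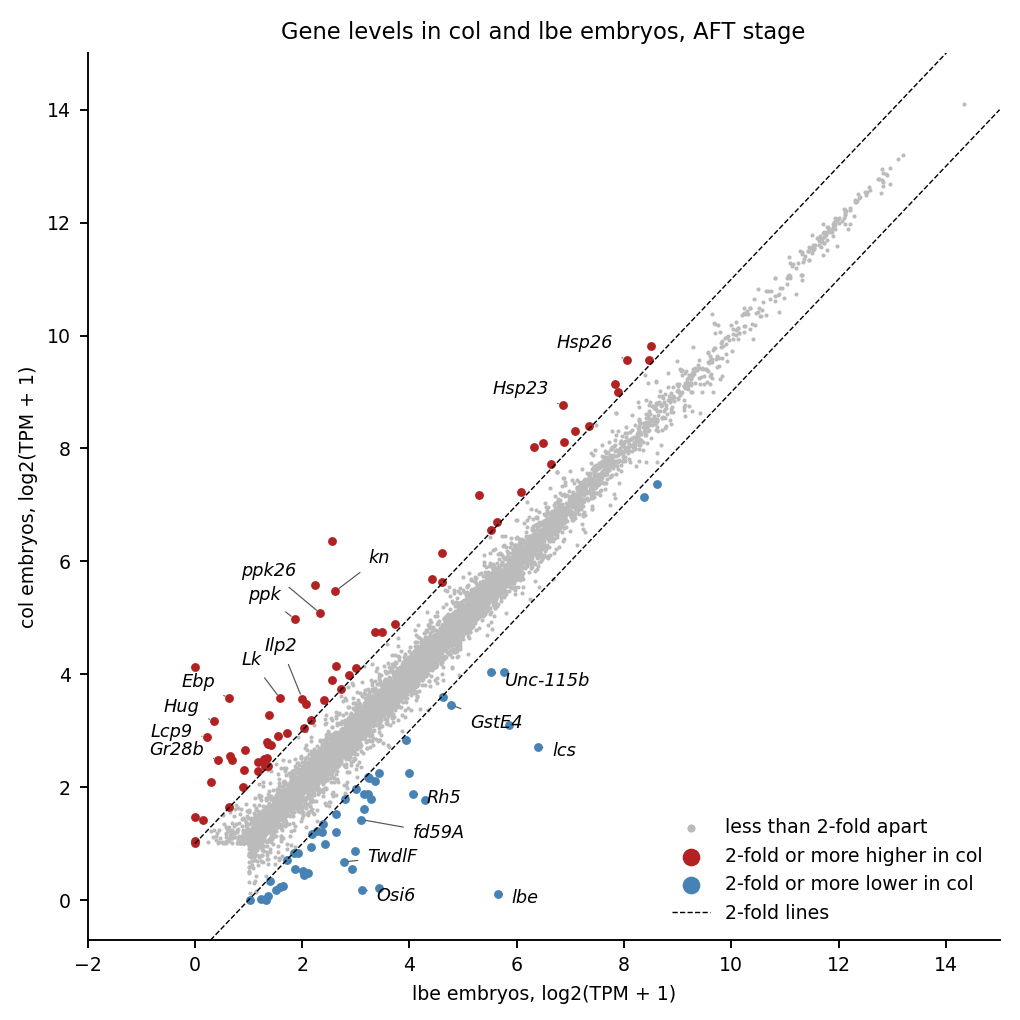
Level of each of the 9902 genes compared in col embryos (vertical axis) and lbe embryos (horizontal axis) at AFT, as log2(TPM + 1) of the authors' means; the dashed lines mark 2-fold on this scale. The 66 genes higher in col (red) include kn, ppk and ppk26, the 52 lower in col (blue) include lbe and lcs, and most genes lie close to the diagonal.

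The channel genes ppk and ppk26 of class IV neurons were higher in col, while the channel genes pain, Piezo and nompC, given below, were not. The gene pickpocket (ppk), which encodes a DEG/ENaC channel subunit used for mechanical nociception in these neurons, was at 30.5 TPM in col, 2.64 in lbe, 16.9 in col + lbe, 8.68 in ap + eya and 9.65 in control embryos. Its difference between col and lbe was 3.11. The partner subunit gene ppk26 was at 32.8 TPM in col, 4.05 in lbe, 27.6 in col + lbe, 12.7 in ap + eya and 11.3 in control (difference 2.74). In both genes col was the highest of the 5 genotypes and lbe the lowest, with the control between them. The genes lie apart in the genome, ppk (FBgn0020258) on 2L from 14378218 to 14381172 on the minus strand and ppk26 (FBgn0035785) on 3L from 7456149 to 7458608 on the plus strand.

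Set beside the control, ppk stood at 1.56 in col and -1.55 in lbe on the log2 scale, ppk26 at 1.46 and -1.29, and kn at 1.73 and -1.12. The col and lbe values use the same control mean. These were the 3 genes higher in col that were 2-fold above the control in col and also 2-fold below it in lbe. These are also the markers of class IV neurons used here, which were chosen with earlier results of these data known. The match is therefore no separate evidence. Leaving out kn, which takes up transgene reads, the summed TPM of ppk and ppk26 was 63.3 in col, 6.69 in lbe, 44.5 in col + lbe, 21.4 in ap + eya and 21.0 in control.

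The gustatory receptor gene Gr28b (FBgn0045495, 2L from 7454826 to 7462247, minus strand), whose products serve light and warmth sensing, was at 4.60 TPM in col, 0.356 in lbe, 1.87 in col + lbe, 1.24 in ap + eya and 1.32 in control (difference 2.05). The ionotropic co-receptor gene Ir76b was at 5.77 TPM in col, 1.56 in lbe, 3.31 in col + lbe, 4.20 in ap + eya and 3.76 in control (1.40). Both had col at the top and lbe at the bottom of the 5 genotypes, as ppk did. In Gr28b col + lbe came next after col, as in ppk, while in Ir76b it lay below ap + eya and the control. Below 2-fold, the warmth and irritant channel gene TrpA1 was at 2.05 TPM in col and 0.815 in lbe (0.75), and the co-receptor gene Ir25a at 2.26 and 0.942 (0.75).

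Not all sensory channels were higher in col. Of 39 sensory neuron channel genes measured, 12 were compared. Of those 12, 3 were higher in col and none lower, beside 0.667% and 0.525% of all genes. Their median was 0.08 beside 0.02 over all genes. The painless gene pain, a TRP channel of nociception, was at 25.6 TPM in both col and lbe (0.00). The mechanosensitive channel gene Piezo was at 11.7 TPM in col and 12.0 in lbe (-0.03). The channel gene nompC of touch receptors was at 1.50 TPM in col and 1.96 in lbe (-0.24), and ppk23, a subunit known from pheromone-sensing neurons, at 0.655 and 2.01 (-0.87). Of 15 sensory identity and dendrite genes compared, only kn itself was apart, and the next largest was the LIM homeobox gene Lim1, at 13.5 TPM in col and 7.63 in lbe (0.75).

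The channel genes ppk, ppk26 and Gr28b were also 2-fold apart in the St16 embryos, while Ir76b (0.61) and TrpA1 (0.17) were not, and the median of the 12 channel genes there was 0.01. At St16 ppk was at 4.06 TPM in col, 0.931 in lbe, 1.77 in col + lbe, 1.88 in ap + eya and 2.62 in control (difference 1.39). The partner gene ppk26 was at 3.83 TPM in col, 0.740 in lbe, 1.90 in col + lbe, 2.01 in ap + eya and 1.75 in control (1.47). Gr28b stood at 2.17 TPM in col, 0.377 in lbe, 2.34 in col + lbe, 0.416 in ap + eya and 0.419 in control (1.20). At that stage col was again the highest and lbe the lowest of the genotypes for ppk and ppk26, while Gr28b in lbe was close to ap + eya and the control.

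**Figure D2:**
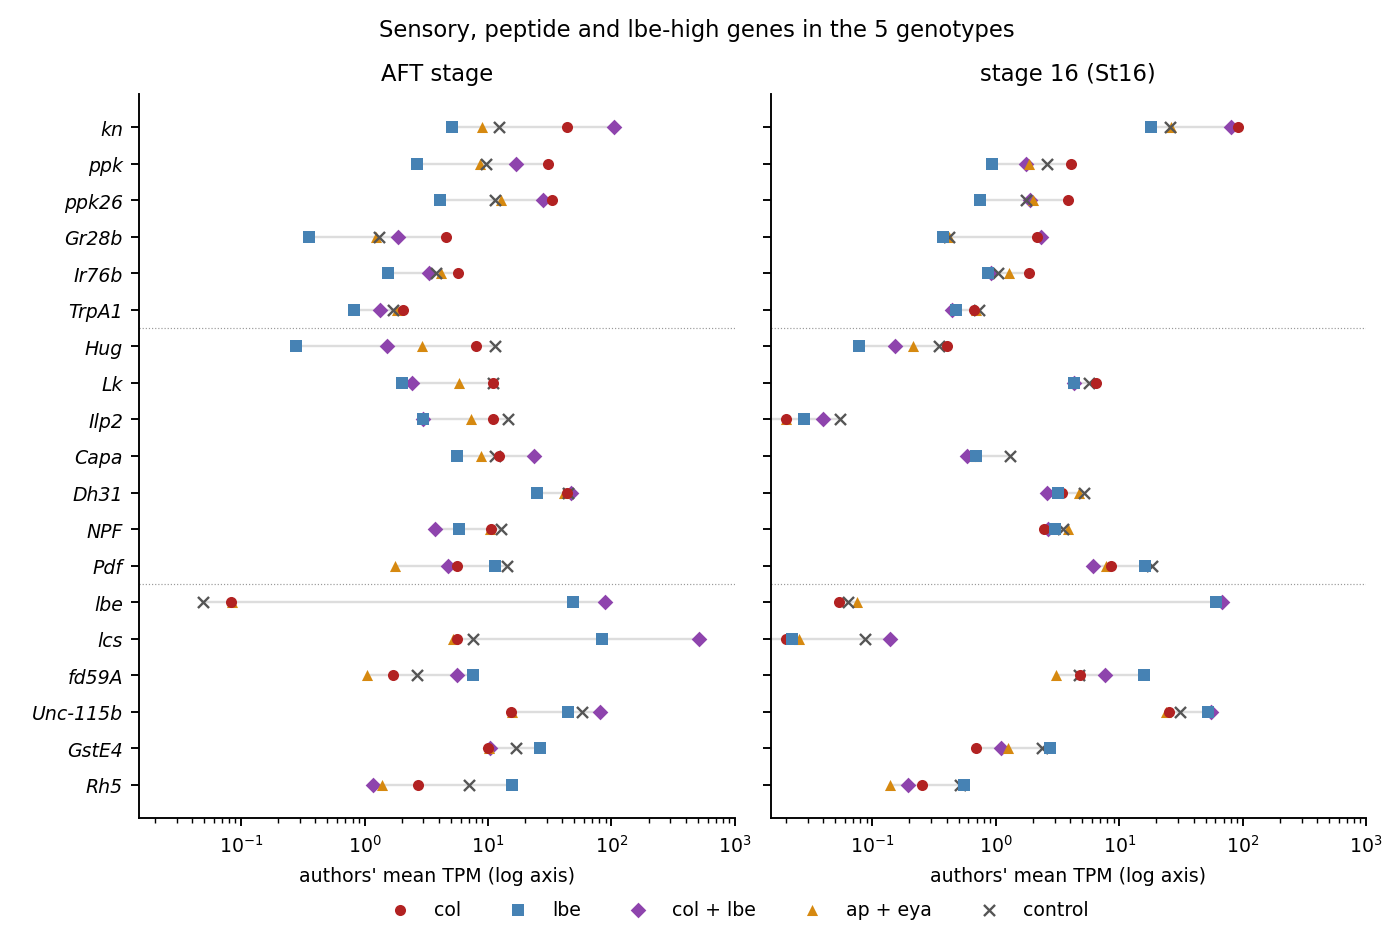
Authors' mean TPM on a log axis in col, lbe, col + lbe, ap + eya and control embryos, at AFT (left) and St16 (right), for sensory genes (top), neuropeptide genes (middle) and genes higher in lbe (bottom); each point is 1 mean, and values below 0.02 TPM, zeros included, are drawn at 0.02. For ppk and ppk26 the col point is the rightmost and the lbe point the leftmost at both stages.

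Several neuropeptide genes were higher in col, but here the control lay with col and the low value was that of lbe. The hugin gene Hug, which encodes peptides of neurons that act on feeding, was at 7.99 TPM in col, 0.277 in lbe, 1.51 in col + lbe, 2.94 in ap + eya and 11.4 in control (difference 2.82). The leucokinin gene Lk, for a diuretic peptide, was at 10.9 TPM in col, 2.01 in lbe, 2.40 in col + lbe, 5.85 in ap + eya and 11.1 in control (1.98). The insulin-like peptide gene Ilp2 was at 10.9 TPM in col, 3.00 in lbe, 2.99 in col + lbe, 7.27 in ap + eya and 14.6 in control (1.57). In these 3 genes the control was the highest of the genotypes, col came next, and col + lbe lay nearer to lbe. Relative to the control, Hug was at -0.46 in col and -3.28 in lbe, and Ilp2 at -0.39 and -1.96.

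The Capa gene, for peptides of neuroendocrine cells of the nerve cord, was at 12.4 TPM in col, 5.62 in lbe, 23.5 in col + lbe, 8.80 in ap + eya and 11.4 in control (1.02). Unlike Hug, Lk and Ilp2, it was highest where both transgenes were driven. Just under 2-fold were Nplp4, at 341 TPM in col and 177 in lbe (0.94), and Mip, at 12.7 and 6.20 (0.93). The clock neuron peptide gene Pdf went the other way, at 5.58 TPM in col, 11.3 in lbe, 4.70 in col + lbe, 1.77 in ap + eya and 14.3 in control (-0.90), and its St16 difference was -0.84. Of 50 neuropeptide genes measured, 41 were compared, of which 4 were higher in col and none lower, beside 0.667% and 0.525% of all genes. Their median was 0.29, and 26 of them were above 0, or 63.4% beside 54.9% of all genes.

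None of Hug, Lk, Ilp2 and Capa was 2-fold apart at St16 on the log2(TPM + 1) scale, though Hug (0.38) and Lk kept their direction. At St16 Hug was at 0.400 TPM in col and 0.0779 in lbe, both under 1 TPM, and Ilp2 was listed at 0 in col and at 0.0277 TPM in lbe. Lk was at 6.54 TPM in col and 4.28 in lbe (0.51). Capa was at 0.678 and 0.696 TPM (-0.02). Hug overlaps Octbeta3R on the opposite strand, and Lk overlaps CG34039 and asRNA:CR44843. The sources used here do not say whether counting used the strand, so reads of such pairs cannot be told apart. Ilp2 overlaps CG32052 on the same strand, where strand would not separate the reads.

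Of 82 neuronal identity transcription factors compared 1 was apart, near the 1.19% of all genes: the forkhead gene fd59A. It was at 1.69 TPM in col, 7.53 in lbe, 5.58 in col + lbe, 1.04 in ap + eya and 2.64 in control (difference -1.67). Its St16 values were 4.81 TPM in col, 15.9 in lbe, 7.68 in col + lbe, 3.10 in ap + eya and 4.71 in control (-1.54). At both stages lbe was the highest and col + lbe the second highest of the genotypes. The list's median was 0.13.

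Smaller differences in this list kept their direction at St16 in some genes. The homeobox gene Hmx was at 2.04 TPM in col and 0.679 in lbe at AFT (0.86), with St16 levels of 6.03 in col and 2.71 in lbe (0.92). The bHLH gene Fer1 was at 5.69 TPM in col and 11.1 in lbe (-0.85), and at 8.71 and 18.4 at St16. The Pax6 gene toy was at 6.14 and 9.87 TPM (-0.61), and at 7.98 and 13.4 at St16 (-0.68). By contrast, the zinc-finger gene cas was at 7.55 TPM in col and 3.68 in lbe (0.87), but at 18.5 and 19.2 at St16 (-0.05).

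Other genes lower in col were highest, or nearly so, where lbe was driven. The gene lcs (la costa) was at 5.58 TPM in col, 83.1 in lbe, 512 in col + lbe, 5.24 in ap + eya and 7.51 in control (difference -3.68). The 2 genotypes with the lbe transgene thus stood above the other 3, which lay between 5.24 and 7.51 TPM. Of 24 muscle and heart identity genes compared it was the only one apart, beside 1.19% of all genes, and their median was 0.10. The next gene apart on the same strand of X, whe, 5022 bases from lcs, was at 0.137 TPM in col, 1.84 in lbe and 1.60 in col + lbe, and was listed at 0 in ap + eya and control. Among genes known by a number, CG34273 was at 7.55 TPM in col, 57.1 in lbe, 78.0 in col + lbe, 4.88 in ap + eya and 11.5 in control (-2.76). At St16 lcs was no higher than 0.138 TPM in any genotype, and CG34273 stayed between 0.465 and 1.08 TPM.

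The rhodopsin gene Rh5, which serves blue light sensing in the larval eye, was at 2.70 TPM in col, 15.7 in lbe, 1.18 in col + lbe, 1.38 in ap + eya and 7.04 in control (-2.17). Here col + lbe was with the low genotypes and lbe was above the control. Of 24 retinal and phototransduction genes compared Rh5 was the only one apart, beside 1.19% of all genes, and their median was 0.15. The photoreceptor arrestin gene Arr1 was at 8.37 TPM in col and 5.22 in lbe (0.59).

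Unc-115b, one of a pair of genes for an actin-binding protein, was at 15.4 TPM in col, 44.8 in lbe, 80.6 in col + lbe, 15.6 in ap + eya and 57.3 in control (-1.48). Its near-identical copy Unc-115a was at 123 TPM in col and 138 in lbe (-0.16), and reads shared between the copies leave each value uncertain. The glutathione transferase gene GstE4 was at 10.0 TPM in col, 26.4 in lbe, 10.4 in col + lbe, 10.2 in ap + eya and 16.9 in control (-1.31). CG31219 differed in another way: at 0.157 TPM in col and 9.78 in lbe (-3.22), it was also at 10.0 in ap + eya and 3.79 in col + lbe, against 0.196 in control. The cell death gene grim was at 0.793 TPM in col, 2.62 in lbe, 3.64 in col + lbe, 1.32 in ap + eya and 0.747 in control (-1.01). It was the one of 14 apoptosis genes apart, beside 1.19% of all genes. The gene rpr, which acts with it, was at 6.24 TPM in col and 9.43 in lbe (-0.53).

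Heat shock genes were higher in col as a group. Of 19 heat shock genes outside the Hsp70 copies, all compared, 6 were higher in col and none lower, 18 were above 0, and the median was 0.55, beside 0.667% higher in col, 54.9% above 0 and a median of 0.02 over all genes. The small heat shock protein gene Hsp23 was at 433 TPM in col, 114.8 in lbe, 150.2 in col + lbe, 457 in ap + eya and 166 in control (difference 1.91). Hsp26, another of these chaperone genes, was at 760.2 TPM in col, 265 in lbe, 145 in col + lbe, 836 in ap + eya and 307 in control (1.52). Col and ap + eya were thus high together, while lbe, col + lbe and the control were low together. The other members higher in col were Hsp22 (1.88), Hsp27 (1.71), Hsp68 (1.23) and Hsp67Bc (1.06).

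The near-identical Hsp70 copies share reads, so their sum was taken. Over the 6 copies it was 1966 TPM in col, 911 in lbe, 522 in col + lbe, 2059 in ap + eya and 774 in control embryos, a difference of 1.11. Hsc70-4, which encodes a constitutive chaperone, was at 1330 TPM in col and 1224 in lbe (0.12). Of the members higher in col, 5 lie side by side on 3L, in the order Hsp67Bc, Hsp22, Hsp26, Hsp23 and Hsp27, with 433 to 4454 bases between neighbours. At St16 the list's median was 0.03 and the Hsp70 sum was 518 TPM in col and 490 in lbe, against 1966 and 911 TPM at AFT.

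Some protease and lysozyme genes of the gut were also higher in col, while amylase and maltase genes were not. Of 12 amylase and maltase genes compared none was apart, 6 were above 0 and the median was 0.01. The summed TPM of all 13 such genes measured was 667 in col, 722 in lbe and 706 in control. The trypsin gene betaTry was at 316 TPM in col, 134 in lbe, 607 in col + lbe, 249 in ap + eya and 38.8 in control (difference 1.23). The lysozyme gene LysS was at 338 TPM in col, 161 in lbe, 724 in col + lbe, 294 in ap + eya and 23.4 in control (1.07). In both, lbe was the lowest of the 4 misexpressions and still above the control. Of 27 Jonah and trypsin protease genes 4 were higher in col and none lower, with a median of 0.42, and of 4 lysozyme genes compared 1 was higher, with a median of 0.61, against the 0.667% and 0.02 over all genes. The 4 proteases were betaTry, Jon25Bii (1.12), Jon25Bi (1.10) and Jon66Cii (1.02), and Jon25Bi and Jon25Bii are copies whose shared reads leave each uncertain. The chitinase genes Cht9 (1.27) and Cht4 (1.21), which are neighbours on 2R, were the 2 higher of 26 chitinase and peritrophic genes, whose median was 0.10, and Cht4 was lower in lbe (1.45 TPM) than in the control (2.37 TPM). The summed TPM of the 6 midgut markers was 2380 in col, 1429 in lbe, 3536 in col + lbe, 2033 in ap + eya and 614 in control.

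Genes of the late embryonic cuticle went the other way. Osi6, a member of the Osiris family of membrane proteins of cuticle-forming cells, was at 0.137 TPM in col, 7.71 in lbe, 0.154 in col + lbe, 0.174 in ap + eya and 15.7 in control (difference -2.94). Osi7 (-1.50), Osi15 (-1.40) and Osi20 (-1.20) were lower too. These were 4 of the 7 Osiris genes compared, beside 0.525% of all genes lower in col, and the median of the 7 was -1.20. All 4 were under 1 TPM in col and entered the comparison only through their level in lbe. Of 24 Osiris genes measured the others were below 1 TPM in both genotypes, and with no filter the median was -0.03. The Tweedle cuticle protein gene TwdlF was at 0.598 TPM in col, 5.82 in lbe, 0.599 in col + lbe, 0.576 in ap + eya and 18.3 in control (-2.09), and TwdlD was at 3.46 in col and 8.45 in lbe (-1.08). In all of these the control was the highest, lbe came next, and col, col + lbe and ap + eya were low. At St16, Osi6 stood at 9826 TPM in col and 9601 in lbe (0.03), and TwdlF at 1470 and 1334 (0.14), levels that come from a separately normalized table.

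Most other cuticle genes differed by less. Over all genes compared, 0.525% were lower in col, 0.667% higher and 54.9% above 0. Of 17 Tweedle genes 5 were above 0 (29.4%), and of 73 Cpr, Lcp and Ccp genes 13 were (17.8%). The median was -0.26 over 17 Tweedle genes, of which 2 were lower in col, and -0.26 over 73 Cpr, Lcp and Ccp genes, of which 1 was lower and 2 higher. The lower one was the larval cuticle gene Lcp1, at 2.67 TPM in col, 7.86 in lbe, 2.63 in col + lbe, 2.15 in ap + eya and 17.9 in control (-1.27). None of 31 ecdysone cascade and moult timing genes was apart, and their median was -0.03. The summed TPM of the 5 moult timing markers was 98.7 in col, 95.0 in lbe, 70.3 in col + lbe, 91.5 in ap + eya and 155 in control, and the part of developmental age in the cuticle and gut differences was not tested.

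**Figure D3:**
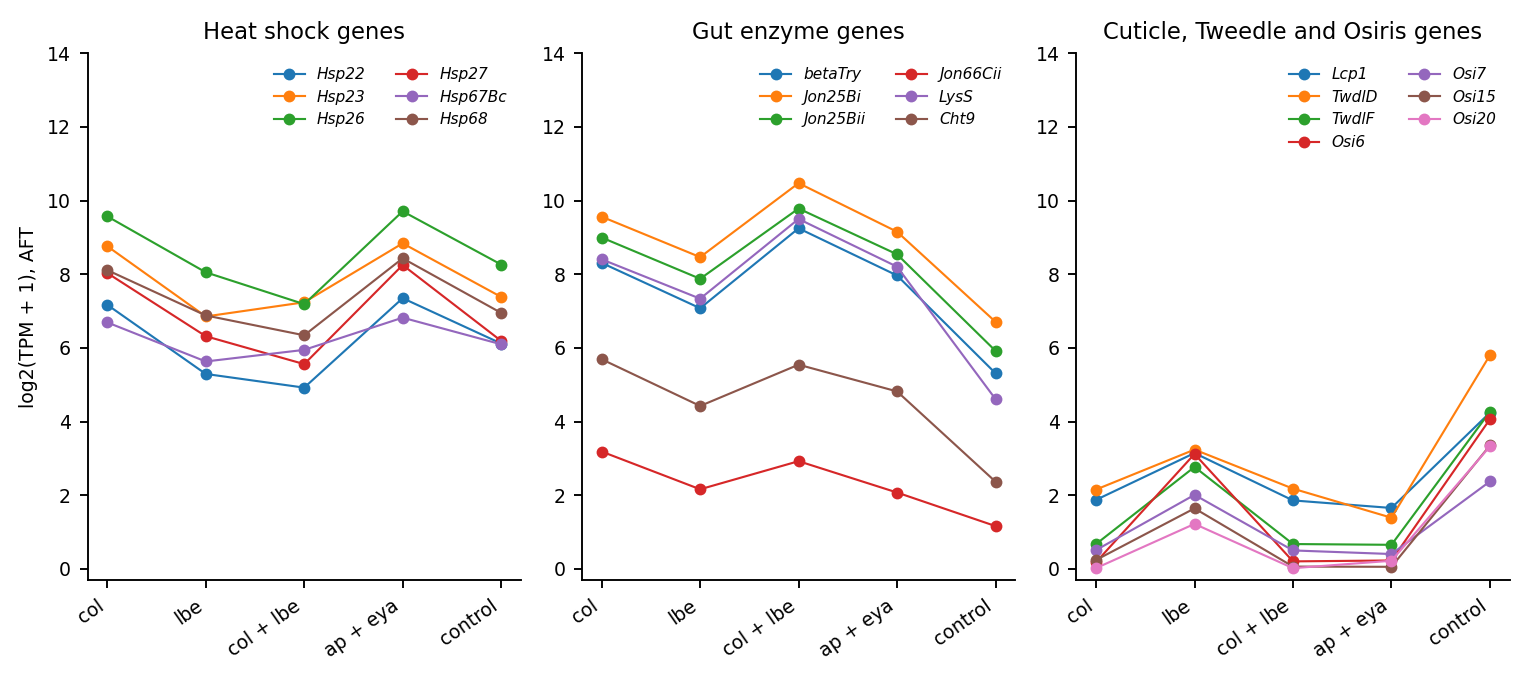
Levels at AFT, as log2(TPM + 1) of the authors' means, of heat shock genes (left), gut enzyme genes (middle) and cuticle, Tweedle and Osiris genes (right) in col, lbe, col + lbe, ap + eya and control embryos; each line joins the 5 means of 1 gene. The heat shock genes are high in col and ap + eya, the 6 gut genes plotted are lowest in the control, and the 7 genes plotted on the right are highest in the control with lbe next.

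Lcp9, which is named as a cuticle gene, did not follow that family. It was at 6.41 TPM in col, 0.163 in lbe, 0.523 in col + lbe, 0.366 in ap + eya and 0.907 in control (difference 2.67). At St16 it was at 7.39 TPM in col, 1.07 in lbe, 1.99 in col + lbe, 1.06 in ap + eya and 0.774 in control (2.02). Col stood above the other 4 genotypes at both stages. The gene (FBgn0025578) lies on 2R from 24779979 to 24780428 on the minus strand, and asRNA:CR44067 overlaps it on the plus strand.

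Other genes were high in col and in some further genotypes. Ebp, named for an ejaculatory bulb protein, was at 10.9 TPM in col, 0.554 in lbe, 4.56 in col + lbe, 0.596 in ap + eya and 0.661 in control (2.94). CG32198 was at 80.7 TPM in col, 4.85 in lbe, 74.3 in col + lbe, 60.8 in ap + eya and 2.75 in control (3.80), so lbe was the one misexpression near the control. CG11300 was at 46.9 TPM in col, 3.70 in lbe, 11.2 in col + lbe, 5.09 in ap + eya and 0.876 in control (3.35). At 8.65 TPM in col, 1.61 in lbe, 31.6 in col + lbe, 3.36 in ap + eya and 2.66 in control, CG15082 was highest with both transgenes (1.88). CG12896 was at 16.4 TPM in col and listed at 0 in lbe, and was at 3.60 in col + lbe, 13.9 in ap + eya and 9.25 in control.

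Of the 118 genes apart at AFT, 14 were also apart at St16 in the same direction, which is 11.9% of the AFT genes and 32.6% of the 43 genes apart at St16 (0.441% of 9746 compared, 0.205% higher and 0.236% lower in col). Without kn and lbe they were 12. Higher in col at both stages were ppk, ppk26, Gr28b, Lcp9, phr and Oaz, and lower were fd59A, Unc-115b, GILT3, GstE4, CG31219 and CG9016. Oaz and phr were chosen after their values were seen. Oaz, a zinc-finger gene named after a rat protein that binds Olf-1/EBF, was at 3.00 TPM in col, 0.860 in lbe, 6.01 in col + lbe, 1.16 in ap + eya and 1.41 in control at AFT (1.11). At St16 it was at 5.50 TPM in col, 2.22 in lbe, 6.61 in col + lbe, 2.48 in ap + eya and 2.30 in control (1.01). The 2 genotypes with the col transgene were thus above the other 3 at both stages.

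The photolyase gene phr, for repair of light-damaged DNA, was at 4.83 TPM in col, 0.579 in lbe, 0.671 in col + lbe, 9.13 in ap + eya and 0.747 in control at AFT (1.89). Its St16 difference was 1.77, and it overlaps Prosalpha1 on the other strand. GILT3, of a family of lysosomal thiol reductases, was at 2.46 TPM in col and 8.68 in lbe in the AFT embryos (-1.48). Its St16 levels were 2.98 TPM in col and 26.5 in lbe (-2.79). At both stages phr was high in col and ap + eya and GILT3 was low in the same pair, at 1.73 TPM in ap + eya against 5.78 in control at AFT. CG12896 was 2-fold apart in opposite directions, at 19.6 TPM in col and 51.6 in lbe at St16 (-1.35).

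The genes apart at AFT but within 2-fold at St16 had St16 medians close to 0. Of the 58 such genes higher in col at AFT 35 were above 0 at St16, with a median of 0.06 and a range from -0.49 to 0.97. Of the 45 lower in col 22 were below 0, with a median of 0.00 and a range from -0.85 to 0.50. Over all genes compared at St16 the median was -0.02, and 42.7% were above 0.

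**Figure D4:**
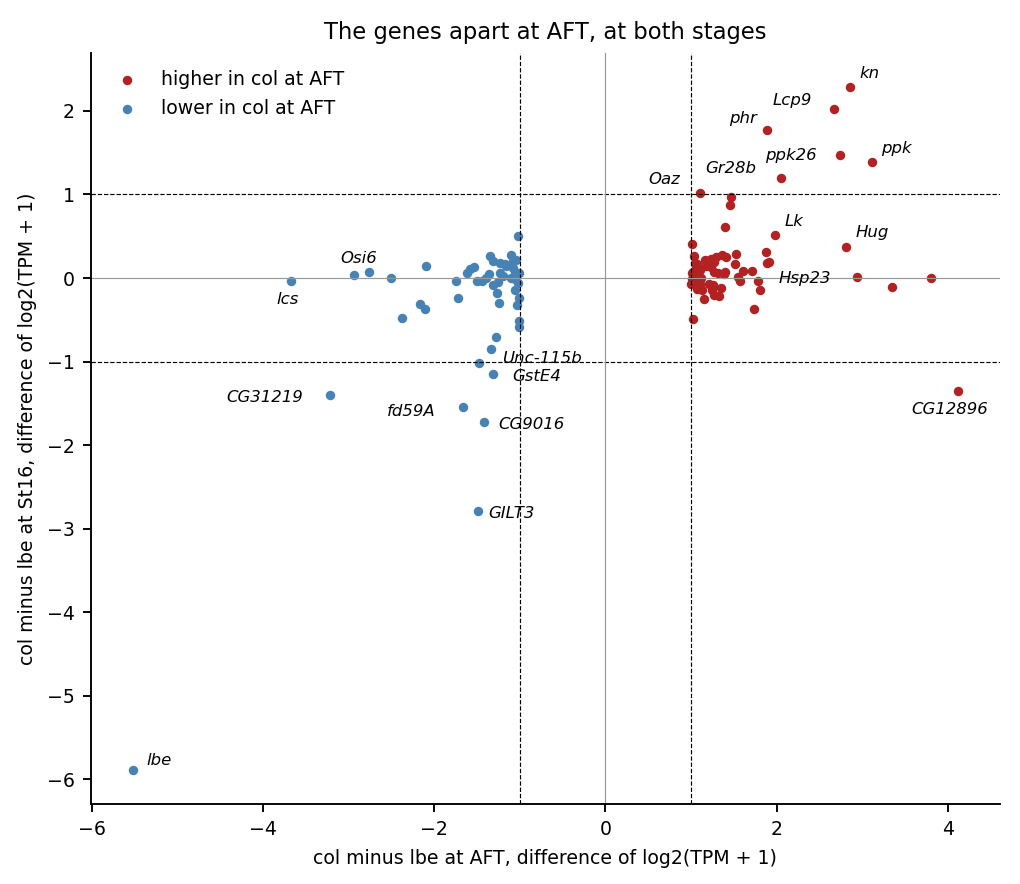
Difference in log2(TPM + 1), col minus lbe, at AFT (horizontal axis) and St16 (vertical axis) for the 118 genes apart at AFT; each point is 1 gene, and the dashed lines mark 2-fold. The named genes in the upper right and lower left corners are apart in the same direction at both stages, and most other points lie near 0 at St16.

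The control and the other misexpressions placed the genes differently in each direction. Of the 66 genes higher in col, 28 were at least 2-fold above the control in col and within 2-fold of it in lbe, 9 were 2-fold below the control in lbe alone, 12 were above it in both, 3 were on opposite sides of it and 14 were within 2-fold in both. Of the 52 lower in col, 17 were 2-fold above the control in lbe alone, 6 were below it in col alone, 16 were below it in both, 1 was above it in both, 1 was on opposite sides and 11 were within 2-fold in both. Both comparisons with the control use the same mean. Of all genes compared with it, 4.29% were 2-fold apart in col (1.91% above, 2.37% below) and 3.47% in lbe (1.48% above, 1.99% below). In the ap + eya embryos, which carry neither transgene, 35 of the 66 genes higher in col were nearer to col and 31 nearer to lbe. Of the 52 lower in col, 44 were nearer to col and 8 nearer to lbe.

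In the col + lbe embryos, 37 of the 66 genes higher in col were nearer to col and 29 nearer to lbe. Of those 66, 30 lay between col and lbe, 21 above both and 15 below both. Of the 52 genes lower in col, 35 were nearer to col and 17 nearer to lbe, with 29 between, 8 above both and 15 below both. Sensory genes such as ppk and ppk26 were among those nearer to col, and Hug, Lk, fd59A and lcs among those nearer to lbe.

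Genes in no list made up 74 of the 118 genes apart. Of these 35 were higher in col, with sizes from 1.00 to 4.12 and a median of 1.32, the upper end set by CG12896, which was listed at 0 in lbe, and 27 of them were known by a number alone. The other 39 were lower in col, with sizes from 1.01 to 3.22 and a median of 1.28, and 31 of them were known by a number. Below 5 TPM in both genotypes were 17 of the 66 genes higher in col and 21 of the 52 lower. That was 32.2% of the genes apart, beside 23.3% of all genes compared. At 100 TPM or more in col or lbe were 15 of the genes higher in col and 2 of those lower. CG13159, at 2.43 TPM in col, 18.5 in lbe and 59.6 in control (-2.51), had the genotype order of the Osiris genes, while CG30356, at 0.464 TPM in col, 6.61 in lbe and 0.777 in control (-2.38), was high in lbe alone. Sgs8, of a salivary glue protein and with a close copy in Sgs7, was at 1.88 TPM in col and 5.18 in both lbe and control (-1.10).

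**Figure D5:**
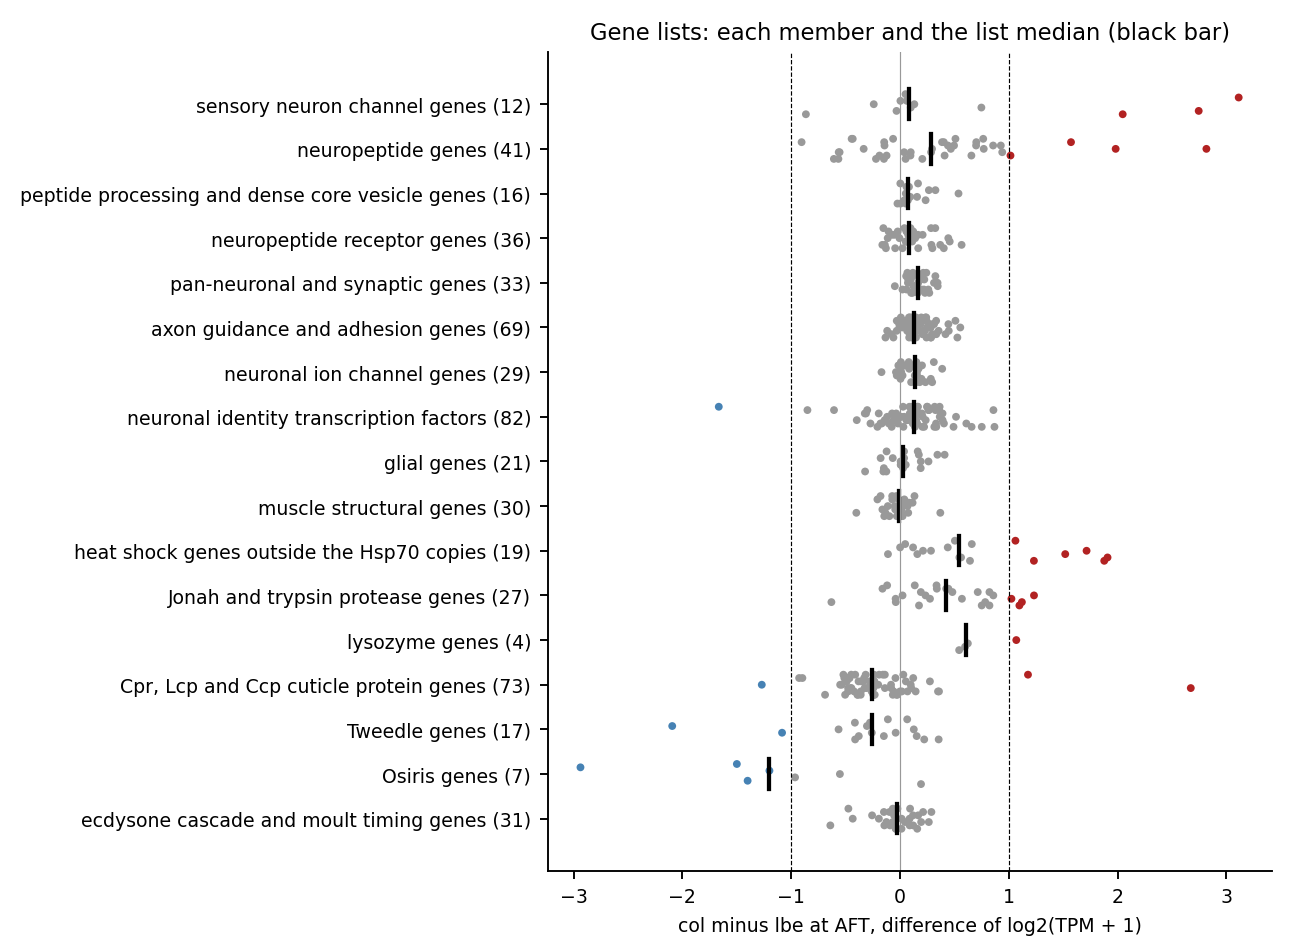
Difference in log2(TPM + 1) at AFT, col minus lbe, for the members of 17 gene lists, with the number compared in brackets; each point is 1 gene, red is 2-fold or more higher in col and blue 2-fold or more lower, and the black bar is the list's median. The Osiris median lies at -1.20 over the 7 genes that passed the filter of 1 TPM in col or lbe. The heat shock median lies at 0.55, while the pan-neuronal, ion channel, glial and muscle lists lie within 0.2 of 0 in the median.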

How the data were processed

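RNA of whole embryos of 5 genotypes was sequenced at 2 stages, with 3 biological replicates per genotype and stage per the labels, which give 30 to 50 M reads for each. The deposited values are TPM, made with kallisto 0.43.1 and genome build BDGP6, per the submitters' processing notes. How transcripts were summed to genes and whether strand was used are not given in the sources used here. Each table holds 1 TPM column per genotype. That these are means of 3 was tested on the digits: after multiplying by 3, 54.5% of AFT values from 10 to 100 TPM were whole to within 0.02 at decimal 4, and after multiplying by 1, 2, 4 or 5 only 19.9% to 27.3% were. A limma fit over replicates, planned in case single libraries were given, could not be made, so no test, p-value or SD is given.

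Differences were taken as log2(TPM + 1) in col minus that in lbe, for genes at 1 TPM or more in either, a scale that shrinks fold changes at low TPM. Genes at 1 or more in size were counted as apart. The members and the 42 gene lists were chosen with earlier results of these data known, and lists are described by counts and medians only. Named genes were kn, lbe, lbl, ppk and ppk26, per direction the 12 largest differences with at least 5 TPM in col or lbe and not known only by a CG or CR number, the 4 largest known only by one, and up to 8 members of a described list, largest first. Other genes named, among them pain, Piezo, nompC, ppk23, Pdf, Arr1, rpr, Hsc70-4, Oaz, phr, whe, CG9016 and the genes next to the limit, were chosen after their values were seen. Copies that share reads are uncertain, and 38 of the 118 genes apart overlap another annotated gene. The share of overlapping genes over all genes compared was not computed.

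Positions come from the BDGP6.54 annotation of Ensembl release 115. They were matched by symbol or by a unique older symbol in RefSeq's gene table, for 9863 of the 9902 genes compared. Names of 5 genes that a spreadsheet had turned into dates were put back. The 32 further columns of each table, which hold log2 values and lists the authors made from the same means, were not used. The computation was tested on simulated data. Alternatives were other pseudocounts, filters, scalings and limits. Python 3.11.15, pandas 2.3.3, numpy 2.4.6 and matplotlib 3.10.9 were used.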

Additional observations from a re-analysis of the deposited data

How the results depend on the processing

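The counts of genes apart depended on how low values were treated. Against 66 genes higher in col and 52 lower, a pseudocount of 0.1 gave 119 and 89, a pseudocount of 5 gave 31 and 15, and the plain TPM ratio gave 130 and 100. A limit of 3-fold gave 20 and 14. A filter of 5 TPM gave 49 and 31. With no filter, median-ratio rescaling, quantile normalisation, or without cuticle, gut and moult genes, the counts ran from 57 to 66 higher and from 45 to 54 lower. Of the genes apart at AFT, 14 were also apart at St16 in the same direction. This count became 22 with a pseudocount of 0.1 at St16 and 6 with a pseudocount of 5 there. The pseudocount was changed at St16 only, and the AFT calls were kept at the main setting. Of 33 named genes, 26 stayed on their side of 2-fold under every alternative that kept that limit, and none changed direction. With a pseudocount of 5, 7 of them fell under the limit, among them Ilp2 (0.99), fd59A (-0.91) and TwdlF (-0.95), and at 3-fold 7 did. The Osiris median, -1.20, ran from -3.27 with the plain ratio to -0.03 with no filter. Rescaling by the median ratio shifted genes by at most 0.02 on the log2 scale. No paired analysis was possible because the files hold 1 mean per genotype and no single libraries, and leaving out each replicate was not run for the same reason. How much of any difference lies within replicate spread or counting error is therefore unknown.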

Other observations

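Over 15 lists of neuronal and sensory genes, 460 genes were compared, of which 9 were higher in col and 2 lower (2.39%, beside 1.19% of all genes). Of these 460, 355 were above 0 (77.2%, beside 54.9% of all genes), with a median of 0.13 beside 0.02. The 11 apart, all described above, lay in 6 of the lists. The other 9 lists, of synaptic, channel, receptor, transmitter, peptide-processing, guidance and adhesion genes, held 290 genes compared, of which 240 were above 0 (82.8%). Among 33 pan-neuronal and synaptic genes 32 were above 0, with a median of 0.17. The summed TPM of 5 pan-neuronal markers was 133 in col, 114 in lbe, 185 in col + lbe, 128 in ap + eya and 162 in control. That of 5 glial markers was 86.6 in col, 97.7 in lbe and 124 in control, and that of 5 muscle markers 14686 in col, 14671 in lbe and 16161 in control. At St16 the 460 genes had a median of 0.01 beside -0.02 over all genes, and 53.7% of them were above 0 beside 42.7%. The lists share the same col and lbe means, and part of a shift over many genes of 1 tissue in whole embryos cannot be told apart from a difference in the share of that tissue.

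The genes apart lay across the chromosome arms, at 1.02% of the genes compared on 2L, 1.43% on 2R, 1.32% on 3L, 1.47% on 3R and 0.581% on X, with none of 75 on chromosome 4, over the 9863 genes that the annotation placed. Neighbours within 10000 bases of each other made up 12 pairs of 21 genes, and both members of every pair lay in the same direction. The pairs are not independent: they include the heat shock genes side by side on 3L. Also among them are copies that share reads, such as Hsp70Bbb with Hsp70Bb and Jon25Bii with Jon25Bi. The share of such pairs over all genes compared was not computed. One such pair in no list was CG34278 and CG42779 on 3R, which lie 768 bases apart within the span of cher on the other strand. CG42779 was at 561 TPM in col, 228 in lbe, 188 in col + lbe, 58.0 in ap + eya and 37.6 in control, and CG34278 at 92.6, 44.6, 34.5, 4.88 and 1.95 TPM in the same genotypes. Another pair, CG12506 and CG13947 on 2L, was lower in col: CG12506 was at 140.5 TPM in col, 332 in lbe, 979 in col + lbe, 136 in ap + eya and 65.2 in control, and CG13947 at 165, 391.9, 1255, 177 and 84.6 TPM in the same genotypes. All 4 of these numbered genes were chosen after their values were seen.

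Of 8 mitochondrial genes compared 1 was above 0 at AFT, with a median of -0.14, and at St16 all 8 were above 0 with a median of 0.23. None was apart. Over all genes 54.9% were above 0 at AFT and 42.7% at St16. Of 14 E(spl) and Notch target genes 4 were above 0, with a median of -0.15, and at St16 1 was above 0, with a median of -0.17. The immune peptide gene AttB was the one of 27 immune and stress genes apart, at 3.95 TPM in col, 0.892 in lbe, 14.3 in col + lbe, 4.57 in ap + eya and 0.313 in control (1.39). Of 66 cytochrome P450 genes 2 were higher in col, Cyp6w1 (1.25) and Cyp28d2 (1.16), and of 89 cytosolic ribosomal protein genes 1 was, RpS28-like, at 1.01 TPM in col and listed at 0 in lbe, beside 0.667% of all genes.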
